A study of Mus musculus with 12 samples.

Results

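The response of Dali knockdown (KD) cells to retinoic acid (RA) was described from 6 of the 12 arrays of the series, the 3 arrays of KD cells after RA and the 3 arrays of proliferating KD cells. Its members were all genes with a value. For each of 19938 genes the most variable probe set, by interquartile range over the 12 arrays, stood for the gene. No group labels entered that choice, but differences between groups widen that range, so it can favour probe sets that differ between groups. After the less variable genes were dropped, 9969 of the 19938 genes were tested. RNA was measured in N2A cells, an established neuroblastoma line of the mouse that can be differentiated towards neurons, on Affymetrix whole-transcript gene arrays of 1 colour. RA-treated KD cells had spent 72 h in medium with 20 µM all-trans RA and 2% fetal bovine serum, and proliferating KD cells had grown without RA in 10% serum. RA and the lower serum therefore cannot be told apart. Both groups carried a short hairpin RNA (shRNA) against Dali, a long non-coding RNA transcribed next to the POU-domain gene Pou3f3, from a stably integrated plasmid with hygromycin selection. The same 2 media were given to 3 arrays each of control cells, N2A cells with a scrambled shRNA on the same plasmid, and these served for comparison. The study's methods describe the stable KD cells as clonal lines, but the labels leave unsaid if a group's 3 arrays came from different clones or from separate cultures. The methods call the 3 samples of a group biological replicates without saying what was replicated, so p-values measure no more than the spread between these samples.

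RA is the acid form of vitamin A. It binds nuclear receptors (RARs) that pair with retinoid X receptors (RXRs) on DNA and switch on target genes, among them the Cyp26 enzymes that degrade RA itself and, in embryos, the Hox genes that pattern the hindbrain and spinal cord. In neuroblastoma lines RA is widely used to bring on neurite outgrowth.

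More than 5% of the tested genes of KD cells were higher after RA in lower serum, and slightly fewer were lower. At an adjusted p under 0.05 in limma and a change of at least 1.3-fold, 535 genes were higher in RA-treated than in proliferating KD cells (5.37% of those tested) and 456 were lower (4.57%). Of these, 43 were higher and 11 were lower by at least 2-fold, and the median change over all 19938 genes was -0.01 on the log2 scale. In 987 of the 991 called genes the arrays of the groups did not overlap, which was also so in 45.8% of all tested genes. KD arrays correlated at 0.9924 to 0.9947 within the RA-treated group and at 0.9957 to 0.9961 within the proliferating group. The first principal component of the 6 KD arrays (58.8% of the variance) separated the groups, and the second (16.5%) spread the RA-treated arrays, with array 3 of them farthest out. Without that array 563 genes were called higher and 436 lower, and 749 of the 991 genes stayed called whichever of the 6 KD arrays was left out. The knockdown could not be checked, since none of the named probe sets was for Dali, and its neighbour Pou3f3 stood at 7.14, 7.30 and 7.31 in RA-treated KD cells, against 7.13, 7.26 and 7.34 in proliferating KD cells.

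The listed markers of N2A cells (sympathoadrenal genes such as Gata2 and Th) lay between percentiles 60 and 97.9 of all probe sets. Of the 10 measured, 8 of them tested, 3 were called lower after RA, against 4.57% of all tested genes. The 8 glial, 10 fibroblast and 9 immune and endothelial markers held 1 called gene, Pecam1, an adhesion molecule of endothelial and blood cells, which was lower (-0.53). The mean level of the glial markers was 6.71 to 6.78 on RA-treated and 6.78 to 6.81 on proliferating KD arrays. That of the fibroblast markers was 6.25 to 6.44 on RA-treated and 6.25 to 6.30 on proliferating arrays, and that of the immune and endothelial markers 6.09 to 6.23 on RA-treated and 6.13 to 6.22 on proliferating arrays. In bulk RNA, fewer cells of a type and less RNA per cell cannot be told apart.

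Promoter sequences are shown for the gene groups that moved together, because each group has a short DNA motif by which it is commonly recognised. Genes of DNA replication often carry sites for E2F factors, genes of mitosis carry CHR elements (cell cycle genes homology regions) together with CCAAT boxes, and genes of the low-oxygen response carry the core that hypoxia-inducible factors bind. The stretches below are from RefSeq promoter windows on GRCm38.p6, which run from 250 bases before to 50 after each start site, and end at or before that site. Capitals mark the motif on either strand.
Mcm5, replicative helicase, chr8:75109336-75109387, plus strand, with overlapping E2F sites: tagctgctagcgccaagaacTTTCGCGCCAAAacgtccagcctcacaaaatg
Cdc6, loader of the helicase, chr11:98907993-98908040, plus strand, with an E2F site: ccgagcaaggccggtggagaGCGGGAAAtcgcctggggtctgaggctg
Mcm6, replicative helicase, chr1:128359725-128359835, minus strand, with E2F sites: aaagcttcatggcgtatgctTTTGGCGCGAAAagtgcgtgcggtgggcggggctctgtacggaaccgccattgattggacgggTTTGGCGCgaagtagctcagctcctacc
Cdk1, the mitotic kinase, chr10:69352913-69353012, minus strand, with CHR elements and CCAAT boxes: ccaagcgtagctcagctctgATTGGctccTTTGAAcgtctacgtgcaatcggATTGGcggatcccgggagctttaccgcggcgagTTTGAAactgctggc
Top2a, topoisomerase of chromosome condensation, chr11:99024190-99024299, minus strand, with a CHR element and CCAAT boxes: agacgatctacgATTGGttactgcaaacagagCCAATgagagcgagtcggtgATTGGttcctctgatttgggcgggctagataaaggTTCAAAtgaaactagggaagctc
Bnip3, mitophagy receptor, chr7:138909517-138909643, minus strand, with hypoxia cores: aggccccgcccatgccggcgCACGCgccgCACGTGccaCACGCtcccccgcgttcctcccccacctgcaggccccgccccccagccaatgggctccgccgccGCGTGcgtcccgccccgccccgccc
Pgk1, a glycolytic kinase, chrX:106186930-106186993, plus strand, with hypoxia cores: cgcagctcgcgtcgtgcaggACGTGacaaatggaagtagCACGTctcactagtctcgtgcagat

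The E2F site, taken as TTTCCCGC, TTTCGCGC, TTTGGCGC or TTTGCCGC on either strand, stood in 14 of 40 windows of the replication list, against 2.26% of all 32851 windows. It was in 11.5% of the windows of genes called higher in RA-treated KD cells and in 1.48% of those of genes called lower. The CHR element TTTGAA was in 30 of 44 windows of the mitosis list (17.9% of all windows), and the CCAAT box in 36 of those 44 (37.4% of all). The hypoxia core, ACGTG or GCGTG, was in 20 of 24 windows of hypoxia-inducible genes, but also in 43.8% of all windows, in 55.8% of those of genes called higher and in 55.3% of those of genes called lower. The core of the sterol element, TCACNCCAC, was in 1 of 17 windows of sterol synthesis genes and in 1.24% of all. A direct repeat of GGTCA or GTTCA with 2 or 5 bases between, the form of many RA elements, was in 0 of 39 windows of RA genes and in 0.606% of all. Windows were at hand for 36 of the 43 measured replication genes, 39 of 47 mitosis genes, 16 of 19 hypoxia-inducible genes, 14 of 17 sterol genes and 23 of 31 RA genes, and for 408 of the 535 genes called higher and 360 of the 456 called lower. These matches are descriptions of letters in 300 bases and not of bound sites.

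The largest rises in KD cells mixed a fucosyltransferase, a milk protein, a sulfotransferase and genes of DNA synthesis. Fut11, which encodes a fucosyltransferase, stood at 8.97, 9.34 and 9.60 in RA-treated KD cells, against 7.29, 6.42 and 7.09 in proliferating KD cells. Its log2 change was 2.37 ± 0.27 (SE; 5.19-fold, adjusted p = 3.34e-05 in limma), with no overlap but a wide spread within both groups, and it was 1.19 when its probe sets were averaged. Csn3, which encodes the milk protein kappa-casein, was at 6.85, 7.09 and 6.99 in RA-treated KD cells, against 4.99, 4.67 and 4.66 in proliferating KD cells (2.20 ± 0.12, 4.6-fold, adjusted p = 1.74e-07). All 3 RA-treated arrays lay more than a log2 unit above every proliferating one. Chst15, a sulfotransferase that modifies chondroitin sulfate, was at 8.68, 8.50 and 8.17 in RA-treated KD cells, against 6.29, 6.44 and 6.35 in proliferating KD cells (2.09 ± 0.11, 4.26-fold). Rrm2, the small subunit of ribonucleotide reductase, which makes deoxynucleotides, was at 10.14, 10.18 and 10.13 in RA-treated KD cells, against 8.49, 8.53 and 8.53 in proliferating KD cells (1.63 ± 0.06, 3.1-fold, adjusted p = 7.32e-08). The spread of Rrm2 within each group was very small beside the distance between the groups. The other genes among the 12 largest rises were Ccnjl (a cyclin-like gene, 1.4), the Wnt receptor gene Fzd5 (1.32), the phosphatase gene Ptp4a3 (1.29), Fbxo48 (1.26), the kinetochore gene Cenph (1.23), the DNA glycosylase gene Neil3 (1.22), Dnajb9, a chaperone of the endoplasmic reticulum (1.20), and Pclaf, a partner of the replication clamp (1.18). The largest of their adjusted p-values was 4.05e-06, and none of the 12 lost its call when 1 array was left out.

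**Figure D1:**
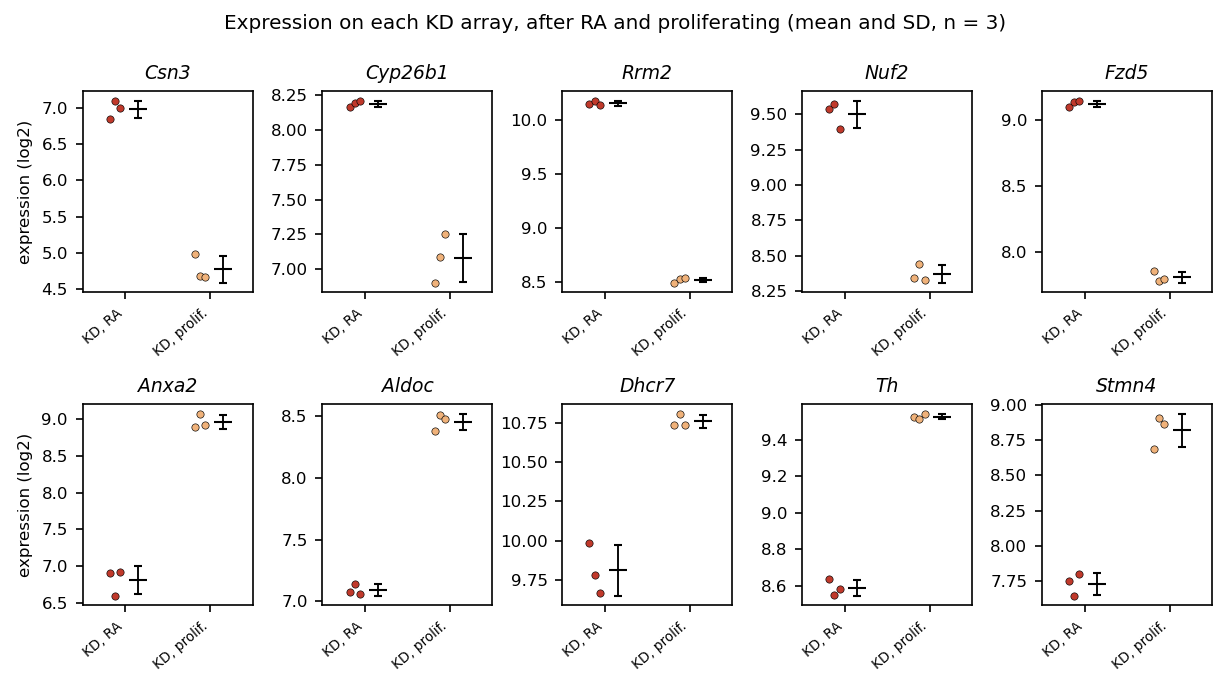
Log2 expression (vertical axes, scaled gene by gene) of 10 genes on each KD array, RA-treated on the left and proliferating on the right, with the mean and SD of 3 arrays beside the points. In all 10 genes the groups did not overlap: Csn3, Cyp26b1, Rrm2, Nuf2 and Fzd5 were higher after RA, and Anxa2, Aldoc, Dhcr7, Th and Stmn4 were lower.

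The largest fall was that of Anxa2, which encodes a calcium-dependent membrane-binding protein. It stood at 6.91, 6.60 and 6.92 in RA-treated KD cells, against 8.89, 9.08 and 8.92 in proliferating KD cells, a change of -2.15 ± 0.10 (4.45-fold lower, adjusted p = 8.55e-08 in limma). Ppy, which encodes the hormone pancreatic polypeptide, was at 7.93, 8.17 and 8.23 in RA-treated KD cells, against 9.90, 9.85 and 9.66 in proliferating KD cells (-1.69 ± 0.10, 3.23-fold lower). Aldoc, a brain form of the glycolytic enzyme aldolase, was at 7.07, 7.14 and 7.06 in RA-treated KD cells, against 8.38, 8.51 and 8.48 in proliferating KD cells (-1.36 ± 0.06, 2.57-fold lower). All 3 genes were separated from their proliferating levels by more than a log2 unit on every array. Txnip, an inhibitor of thioredoxin whose transcription follows glucose, was at 9.05, 9.21 and 9.23 in RA-treated KD cells, against 10.57, 10.51 and 10.47 in proliferating KD cells (-1.35 ± 0.08). The histone genes H2bc4 (-1.34) and H1f2 (-1.31), the bitter taste receptor gene Tas2r135 (-1.25), Bnip3 (-1.16) and the microtubule regulator gene Stmn4 (-1.09) followed. Nrn1, which encodes the neurite-promoting protein neuritin (-1.07), the adhesion molecule gene Mcam (-1.0) and the tubulin-binding Tppp3 (-0.99) completed the 12 largest falls. Values of histone and taste receptor genes are uncertain where near-identical copies share probes.

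Of 31 measured genes of RA metabolism, RA receptors and common RA targets, 3 rose, 2 fell and 26 were not called, and 16 of the 31 had passed the variance filter. The median change was -0.02, against -0.01 over all genes, and 5.37% of all tested genes were higher and 4.57% lower. Cyp26b1, which degrades RA, stood at 8.17, 8.19 and 8.21 in RA-treated KD cells, against 6.90, 7.08 and 7.25 in proliferating KD cells (1.11 ± 0.10, 2.16-fold, adjusted p = 5.63e-06 in limma). Its RA-treated arrays lay close together, the proliferating arrays were more spread, and the groups did not overlap. Its relatives did not pass: Cyp26a1 was at 5.86, 5.92 and 5.78 after RA and 5.64, 5.63 and 5.74 while proliferating (0.18 ± 0.07, adjusted p = 0.0594), and Cyp26c1, which the filter had dropped, changed by 0.06. Nrip1, a corepressor of nuclear receptors that RA induces in other cells, was at 8.65, 8.65 and 8.64 in RA-treated KD cells, against 7.96, 8.08 and 7.96 in proliferating KD cells (0.65 ± 0.05, 1.57-fold). Meis1, a homeobox partner of Hox proteins, was at 8.05, 8.16 and 8.02 after RA and 7.63, 7.71 and 7.72 while proliferating (0.39 ± 0.06, 1.31-fold), just above the 1.3-fold limit. It fell short of that limit without the first proliferating KD array (0.36) or without the second RA-treated KD array (0.35).

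Both genes of this list that fell were cell surface receptors. Stra6, which takes up retinol bound to its carrier, was at 10.07, 9.99 and 10.0 after RA and 10.52, 10.43 and 10.33 while proliferating (-0.41 ± 0.07), and its call was lost without the first proliferating KD array (-0.36) or after a second quantile normalisation (-0.38). Ret, the signalling receptor of the GDNF family, was at 11.72, 11.75 and 11.76 in RA-treated KD cells, against 12.17, 12.20 and 12.11 in proliferating KD cells (-0.42 ± 0.04, adjusted p = 1.29e-05). No RA receptor gene was called: Rara changed by -0.02 ± 0.05, Rarb by -0.02 ± 0.09 and Rarg by 0.02 ± 0.06, and the filter had dropped Rxra (-0.16), Rxrb (-0.03) and Rxrg (-0.04). Rarb, a standard RA-induced gene in many cells, stood at 5.79, 5.89 and 6.09 after RA and 5.86, 6.04 and 5.91 while proliferating, with overlapping groups. The binding protein gene Crabp2 changed by -0.18 ± 0.08, Crabp1 by 0.01 and the plasma retinol carrier gene Rbp4 by 0.15 ± 0.07. Fabp5, which can carry RA to another nuclear receptor, was at 10.60, 10.46 and 10.36 after RA and 10.66, 10.90 and 10.90 while proliferating (-0.35 ± 0.11, adjusted p = 0.0244). That change was under 1.3-fold, but passed it without the first proliferating (-0.42) or the first RA-treated KD array (-0.41). Dhrs3, Rdh10, Rdh11, Lrat and the Aldh1a genes, which make or store retinoids, changed by -0.13 to 0.08. None of 37 measured Hox genes was called in either direction, but the variance filter had let only 14 of them be tested. Their changes ran from -0.16 to 0.38 (Hoxc6), with a median of 0.03, and their levels lay between percentiles 12.2 and 71.7 of all probe sets. With 1 KD array left out, 0 or 1 Hox gene was called higher.

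Cell cycle genes rose together. All 43 measured genes of DNA replication and S phase had a positive change and 38 were called higher after RA, against 5.37% of all tested genes. Their median change was 0.61. Behind Rrm2, the largest were Pole, the catalytic subunit of the leading-strand polymerase (1.18 ± 0.05, 2.26-fold), and Mcm10 (1.05 ± 0.05) and Cdc45 (1.0 ± 0.05), which activate and form part of the replicative helicase. Pole was at 9.95, 10.01 and 9.90 in RA-treated KD cells, against 8.72, 8.84 and 8.77 in proliferating KD cells. Dtl, which marks the licensing factor Cdt1 for destruction (0.89), Cdc6 (0.87) and Mcm5 (0.87) also rose, and Mcm6 (0.39) was close to the limit. The 5 members not called were Cdt1 (0.37), Gins2 (0.32), Orc6 (0.25), Ung (0.18) and Slbp (0.07), which binds the ends of histone mRNAs. Leaving out 1 KD array at a time gave 36 to 39 calls.

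Mitotic genes behaved alike: 44 of 47 rose, 0 fell (background 5.37% and 4.57%), and the median change was 0.66. Nuf2, a kinetochore subunit that holds microtubules, was at 9.54, 9.58 and 9.40 in RA-treated KD cells, against 8.34, 8.44 and 8.33 in proliferating KD cells (1.13 ± 0.06, 2.19-fold, adjusted p = 1.83e-07 in limma). Cenpk of the inner kinetochore was at 9.30, 9.29 and 8.95 after RA and 8.04, 8.14 and 8.14 while proliferating (1.08 ± 0.09), and its RA-treated array 3 was below the others but still above every proliferating one. Top2a was at 11.56, 11.61 and 11.43 in RA-treated KD cells, against 10.51, 10.63 and 10.56 in proliferating KD cells (0.97 ± 0.06). For each of these genes the groups were well apart. Mad2l1 of the spindle checkpoint (0.96), the condensin gene Smc2 (0.96), Foxm1, a transcription factor of mitotic genes (0.92), and Cdk1 (0.75) also rose. Ube2c (0.34), Ccnb2 (0.20) and Cdc20 (0.19) were the 3 members below the limit. With 1 KD array left out, 42 to 44 were called.

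Regulators of the G1 phase split. Of 28 measured, 23 of them tested, 6 rose and 3 fell, with a median of 0.03. Among all tested genes 5.37% were higher and 4.57% lower. The repressive E2F genes E2f8, at 9.15, 9.15 and 9.03 in RA-treated KD cells, against 8.13, 8.16 and 8.09 in proliferating KD cells (0.99 ± 0.04, 1.98-fold), and E2f7 (0.81 ± 0.05) rose, as did the kinase gene Cdk2 (0.53 ± 0.05) and the pocket protein gene Rbl1 (0.44 ± 0.06). So did 2 inhibitors of cyclin-dependent kinases. Cdkn1b, which encodes p27, was at 8.32, 8.43 and 8.47 after RA and 7.70, 7.93 and 7.91 while proliferating (0.56 ± 0.08), but its mean over probe sets changed by only 0.34, under the limit. Cdkn2c, which encodes p18, was at 7.38, 7.64 and 7.46 after RA and 6.98, 7.18 and 6.91 while proliferating (0.47 ± 0.10). E2f2, a gene the study follows, changed by 0.30 ± 0.07 and was not called. The falling genes were the antiproliferative Btg2 (-0.58 ± 0.06), Gadd45b (-0.44 ± 0.08) and Mycn, the neuroblastoma oncogene, at 9.08, 9.0 and 9.06 in RA-treated KD cells, against 9.47, 9.46 and 9.52 in proliferating KD cells (-0.44 ± 0.05).

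Most of the called histone genes fell. Of 33 measured histone genes, 26 of them tested, 1 rose and 4 fell, and the median was -0.01. Among all tested genes 5.37% were higher and 4.57% lower. H2bc4 stood at 7.36, 7.24 and 7.14 in RA-treated KD cells, against 8.49, 8.61 and 8.67 in proliferating KD cells (2.54-fold lower) and H1f2 at 8.92, 8.81 and 8.84 after RA and 10.25, 10.04 and 10.20 while proliferating (2.47-fold lower). H1f3 also fell (-0.58 ± 0.08), and H2bc8 (-0.38) lost its call without the third RA-treated (-0.36) or the first proliferating KD array (-0.28) and after either rescaling of the arrays (-0.36 each) or with array weights (-0.37). The only rise was in H1f5, at 11.18, 11.12 and 11.10 after RA and 10.67, 10.79 and 10.75 while proliferating (0.40 ± 0.06), which lost its call without the first proliferating (0.37) or the first RA-treated KD array (0.38). Among 13 genes of DNA methylation 1 was called: Uhrf1, which guides the maintenance methyltransferase to new DNA, rose (0.50 ± 0.06). The maintenance enzyme gene Dnmt1 was at 10.28, 10.25 and 10.21 after RA and 9.93, 9.97 and 9.95 while proliferating, a change of 0.30 ± 0.04 with no overlap (adjusted p = 0.000135) that was under 1.3-fold.

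**Figure D2:**
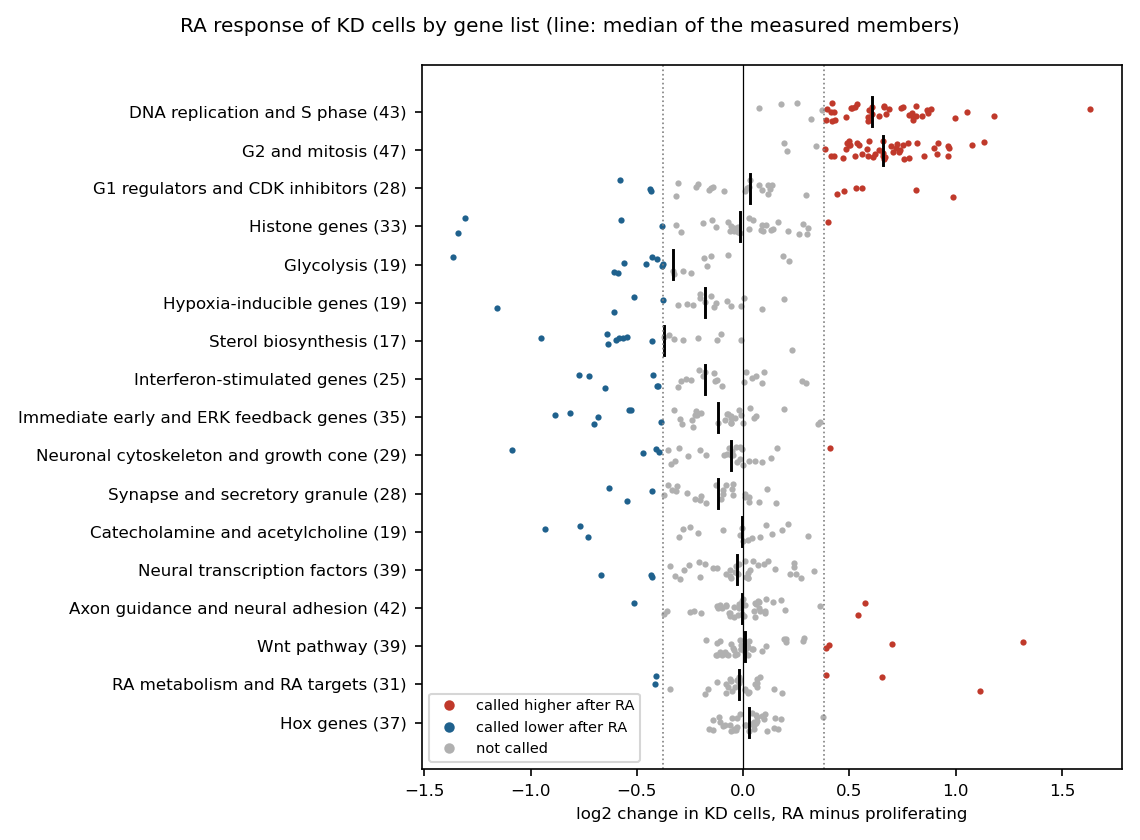
Log2 change in KD cells, RA-treated minus proliferating (horizontal axis), of each measured member of 17 gene lists, with the number of members in brackets, a line at each list's median and dotted lines at 1.3-fold. The replication and mitosis lists lie almost wholly to the right (medians 0.61 and 0.66), the sterol and glycolysis lists mostly to the left (-0.37 and -0.33), and the Hox list around 0.

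Genes of glycolysis fell. Of 19 measured members 9 were called lower and 0 higher (background 4.57% and 5.37%), and the median was -0.33. Besides Aldoc, the neuronal glucose transporter gene Slc2a3 was at 11.41, 11.44 and 11.46 in RA-treated KD cells, against 12.10, 12.03 and 12.02 in proliferating KD cells (-0.61 ± 0.05, 1.53-fold lower). The triose phosphate isomerase gene Tpi1 was at 11.17, 11.09 and 11.11 after RA and 11.73, 11.77 and 11.64 while proliferating (-0.59 ± 0.05), and Pgk1 at 11.14, 11.02 and 10.96 after RA and 11.60, 11.67 and 11.55 while proliferating (-0.56 ± 0.06). In all 3 the groups were apart on every array. Aldoa (-0.46), Eno2 (-0.41), Pfkfb3 (-0.38) and Ldha (-0.38) fell by smaller amounts, and Pfkl (-0.43) dropped below the limit without the third RA-treated KD array (-0.37). The transporter gene Slc2a1 (0.19) and the first-step enzyme gene Hk2 (0.21) had positive changes. Slc2a1 was not called, and the filter had dropped Hk2. Hk1, another first-step enzyme gene, had a negative change (-0.17) and was not called. With 1 KD array left out 6 to 10 members were called.

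Hypoxia-inducible genes leaned the same way, with 4 of 19 lower, 0 higher and a median of -0.18. Of the 19, 16 were tested, and the background was 4.57% lower and 5.37% higher. Bnip3, which tags mitochondria for removal, was at 8.07, 8.02 and 8.14 in RA-treated KD cells, against 9.26, 9.39 and 9.07 in proliferating KD cells (-1.16 ± 0.08, 2.23-fold lower, adjusted p = 1.03e-06 in limma). The adenylate kinase gene Ak4 (-0.61 ± 0.06) and Ddit4, an inhibitor of the growth kinase mTOR (-0.52 ± 0.08), also fell. Bnip3l (-0.38) was at the limit and lost its call without the first (-0.35) or second (-0.36) proliferating or the first RA-treated (-0.35) KD array, after either rescaling of the arrays or with array weights (-0.36 each) and over the mean of its probe sets (-0.34). None of 37 nuclear genes of the respiratory chain was called (22 were tested), and their median was -0.08.

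Sterol synthesis genes leaned towards lower levels after RA. In KD cells 8 of the 17 measured were called lower and 0 higher (background 4.57% and 5.37%). Of the 17 changes 16 were negative, with a median of -0.37. The study picked sterol genes out on these same samples, so that count is not independent evidence of their direction. Dhcr7, which catalyses the last step to cholesterol, stood at 9.99, 9.78 and 9.66 in RA-treated KD cells, against 10.74, 10.81 and 10.74 in proliferating KD cells (-0.95 ± 0.08, 1.94-fold lower, adjusted p = 2.45e-06 in limma). Its RA-treated arrays were more spread than the proliferating ones and all lay well below them. Mvd (-0.64 ± 0.06), Pmvk (-0.56 ± 0.08), Idi1 (-0.55) and Fdps (-0.60 ± 0.07) of the mevalonate steps fell, as did Lss, which closes the sterol rings (-0.64 ± 0.06), Cyp51 (-0.58 ± 0.09) and Nsdhl (-0.43). Cyp51 was at 9.72, 9.56 and 9.27 in RA-treated KD cells, against 10.14, 10.12 and 10.04 in proliferating KD cells. Hmgcs1 (-0.37), at the entry of the pathway, was just under the limit, and Hsd17b7 was the only member with a positive change (0.23).

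Of the genes of the sterol-sensing SREBP transcription factors, lipid uptake and fatty acid synthesis, 20 were measured and 14 tested. Against a background of 4.57% lower and 5.37% higher, 4 fell and 0 rose. Both SREBP genes were among them: Srebf1 was at 10.17, 10.01 and 9.98 after RA and 10.51, 10.51 and 10.47 while proliferating (-0.44 ± 0.06) and Srebf2 at 10.57, 10.49 and 10.49 after RA and 10.97, 10.95 and 10.93 while proliferating (-0.44 ± 0.05). Lpin1, a phosphatase of triglyceride synthesis, was at 9.09, 8.99 and 8.99 in RA-treated KD cells, against 9.74, 9.74 and 9.75 in proliferating KD cells (-0.72 ± 0.04, 1.65-fold lower). The acetyl-CoA synthetase gene Acss2 (-0.56 ± 0.05) was the other. These 4 genes stayed called without any 1 of the KD arrays.

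Most of the called neuronal genes were lower. Among 29 genes of the neuronal cytoskeleton and growth cone, 18 of them tested, 1 rose and 4 fell, with a median of -0.06. Over all tested genes 5.37% were higher and 4.57% lower. Stmn4 was at 7.75, 7.65 and 7.80 in RA-treated KD cells, against 8.68, 8.91 and 8.87 in proliferating KD cells (-1.09 ± 0.07, 2.12-fold lower). The growth cone gene Gap43 was at 10.35, 10.30 and 10.29 after RA and 10.68, 10.75 and 10.73 while proliferating (-0.41 ± 0.04), the tubulin gene Tubb2b at 10.09, 10.01 and 9.83 after RA and 10.41, 10.49 and 10.43 while proliferating (-0.47 ± 0.06), and Dpysl3, a collapsin response mediator, at 11.58, 11.51 and 11.55 after RA and 11.94, 11.93 and 11.97 while proliferating (-0.40 ± 0.04). Dpysl3 was below the limit after the arrays were quantile-normalised again (-0.35). The stathmin gene Stmn1, which destabilises microtubules and is high in dividing cells, rose (0.41 ± 0.05), but not without the first proliferating KD array (0.37). Of 28 synapse and secretory granule genes, 21 of them tested, 3 fell and 0 rose (median -0.12). They were the synapsin genes Syn2 and Syn1 (-0.43 ± 0.05), and Chgb, a granin of secretory granules (-0.55 ± 0.06). Syn2 was at 9.89, 9.92 and 9.85 in RA-treated KD cells, against 10.49, 10.49 and 10.57 in proliferating KD cells (-0.63 ± 0.04).

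The genes of catecholamine and acetylcholine metabolism that were called were lower. Th, the rate-limiting enzyme of catecholamine synthesis, stood at 8.64, 8.55 and 8.58 in RA-treated KD cells, against 9.52, 9.51 and 9.54 in proliferating KD cells (-0.93 ± 0.05, 1.91-fold lower, adjusted p = 1.49e-07 in limma). Dbh, which turns dopamine into noradrenaline, was at 7.85, 7.56 and 7.55 after RA and 8.43, 8.46 and 8.39 while proliferating (-0.77 ± 0.07), and Ache, which breaks down acetylcholine, at 9.09, 9.23 and 9.05 after RA and 9.85, 9.89 and 9.81 while proliferating (-0.73 ± 0.05). In all 3 genes every RA-treated array was below every proliferating one. They were the 3 called of 19 measured, 16 of them tested, and the median of the 19 was -0.01. Among all tested genes 5.37% were higher and 4.57% lower. Of 39 neural transcription factors, 25 of them tested, 3 fell and 0 rose. They were Gata2, a sympathetic lineage factor, at 9.75, 9.81 and 9.77 in RA-treated KD cells, against 10.46, 10.44 and 10.44 in proliferating KD cells (-0.67 ± 0.05), and Id1 (-0.43 ± 0.06) and Id2 (-0.43 ± 0.07), inhibitors of basic helix-loop-helix factors. Of genes that the study names, Dlx1 was at 7.63, 7.48 and 7.56 after RA and 7.23, 7.28 and 7.43 while proliferating (0.24 ± 0.06, under 1.3-fold) and Pax3 changed by 0.03 ± 0.09.

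Of 42 genes of axon guidance and neural adhesion, 22 of them tested, 2 were higher and 1 was lower, with a median of -0.01. The shares over all tested genes were 5.37% higher and 4.57% lower. The netrin receptor gene Unc5a was at 8.13, 8.10 and 8.19 in RA-treated KD cells, against 7.53, 7.66 and 7.54 in proliferating KD cells (0.57 ± 0.05), and the semaphorin receptor gene Plxna4 at 10.78, 10.73 and 10.73 after RA and 10.16, 10.22 and 10.25 while proliferating (0.54 ± 0.04). L1cam, an adhesion molecule of growing axons, fell (-0.52 ± 0.04). The study's genes Nrcam (0.05 ± 0.09) and Dscam (0.18 ± 0.07) were not called. Among 31 ion channel genes, 20 of them tested, 2 rose and 2 fell. The potassium channel gene Kcna4 was at 6.63, 6.55 and 6.35 in RA-treated KD cells, against 5.44, 5.23 and 5.54 in proliferating KD cells (1.11 ± 0.09, 2.15-fold), and the calcium-activated Kcnma1 at 13.30, 13.42 and 13.34 after RA and 12.66, 12.55 and 12.59 while proliferating (0.75 ± 0.05, or 0.39 over the mean of its probe sets). The sodium channel gene Scn2a was at 9.17, 9.01 and 9.02 after RA and 9.74, 9.71 and 9.79 while proliferating (-0.68 ± 0.05), and Scn3a (-0.38) was at the limit and lost its call without the first proliferating (-0.36) or the second RA-treated (-0.33) KD array and after a second quantile normalisation (-0.35) or centring on array medians (-0.36). None of 29 other receptor kinase genes, among them the neurotrophin receptors, was called (17 were tested).

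In the Wnt pathway 4 of 39 genes rose and 0 fell, with a median of 0.01. Of the 39, 20 were tested, and among all tested genes 5.37% were higher and 4.57% lower. Fzd5, a Wnt receptor, was at 9.10, 9.13 and 9.14 in RA-treated KD cells, against 7.85, 7.78 and 7.79 in proliferating KD cells (1.32 ± 0.05, 2.49-fold, adjusted p = 7.32e-08 in limma), and Lef1, a nuclear effector, at 8.54, 8.64 and 8.63 after RA and 7.91, 7.96 and 7.85 while proliferating (0.70 ± 0.06). Both were apart on every array. The secreted inhibitor gene Dkk1 was at 12.36, 12.33 and 12.38 in RA-treated KD cells, against 12.01, 11.99 and 11.86 in proliferating KD cells (0.40 ± 0.05), and its change was under the limit without the third proliferating KD array (0.36). The receptor gene Fzd7 (0.39) lost its call without the first proliferating (0.37) or the first (0.37) or second (0.37) RA-treated KD array. The study names Fzd5 and Dkk1 among genes whose RA response differed between Dali knockdown and control cells. Here 4 of the 39 genes were called higher and 0 lower in control cells, and 0 had a called interaction.

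Immediate early genes, which growth factors switch on within minutes through the kinase ERK, were listed together with feedback inhibitors and targets of ERK such as the Dusp, Spry, Spred and Etv genes. Of these 35 genes, 25 of them tested, 7 were lower and 0 higher, with a median of -0.12. Among all tested genes 4.57% were lower and 5.37% higher. Jun, a subunit of the AP-1 factor, was at 9.36, 9.38 and 9.22 in RA-treated KD cells, against 10.20, 10.18 and 10.23 in proliferating KD cells (-0.89 ± 0.06, 1.85-fold lower, adjusted p = 5.09e-07 in limma), and Klf6, another transcription factor, at 8.59, 8.64 and 8.52 after RA and 9.44, 9.45 and 9.30 while proliferating (-0.81 ± 0.05). Egr1, a zinc-finger factor induced through ERK, was at 8.75, 8.88 and 9.03 after RA and 9.67, 9.55 and 9.55 while proliferating (-0.70 ± 0.07). Their groups did not overlap. Klf10 (-0.68 ± 0.04), Jund (-0.54 ± 0.06) and Junb (-0.53 ± 0.07) fell too, and the last was Spred1 (-0.38), an inhibitor of ERK signalling. With 1 KD array left out 6 to 8 members were called lower and 0 to 2 higher.

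Interferon-stimulated genes stood low on these arrays, with a median level at percentile 39.9 of all probe sets. Of 25, 21 of them tested, 6 fell and 0 rose (median -0.18), against a background of 4.57% and 5.37%. Isg20, an antiviral exonuclease, was at 7.52, 7.56 and 7.65 in RA-treated KD cells, against 8.33, 8.40 and 8.31 in proliferating KD cells (-0.77 ± 0.07, 1.71-fold lower), Ifit1 at 5.51, 5.56 and 5.62 after RA and 6.34, 6.32 and 6.20 while proliferating (-0.73 ± 0.08), and the chemokine gene Cxcl10 at 6.26, 6.25 and 6.51 after RA and 7.19, 6.98 and 6.81 while proliferating (-0.65 ± 0.11). The other 3 were near the 1.3-fold limit and fell under it when certain arrays were left out. Their adjusted p-values in limma stayed under 0.05 in those fits. Ifitm3 (-0.43) lost its call without the second proliferating or the first RA-treated KD array (-0.37 each), Ddx58 (-0.41) without the third proliferating one (-0.34), and Mx2 (-0.40) without the second proliferating (-0.37) or the third RA-treated one (-0.35).

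Of 31 stress genes of the endoplasmic reticulum and amino acid response, 15 of them tested, 3 rose and 3 fell (background 5.37% and 4.57%). The chaperone gene Dnajb9 was at 11.17, 11.53 and 11.35 in RA-treated KD cells, against 10.25, 10.18 and 10.01 in proliferating KD cells (1.20 ± 0.09), and the cystine transporter gene Slc7a11 rose by less (0.46 ± 0.05). Atf3 (-0.51 ± 0.06), Nupr1 (-0.47 ± 0.07) and Ddit3 (-0.45 ± 0.05), which encode transcription regulators induced by stress, fell. The chaperone gene Pdia4 rose (0.43 ± 0.07), but not over the mean of its probe sets (0.33) or on the brighter of them (0.22).

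Of 41 genes of matrix, integrins, annexins and S100 proteins, 25 of them tested, 7 fell and 1 rose, with a median of -0.08. Among all tested genes 4.57% were lower and 5.37% higher, which is the background for each list in this paragraph. S100a6, a calcium-binding protein, was at 8.37, 8.47 and 8.28 in RA-treated KD cells, against 9.11, 9.36 and 9.28 in proliferating KD cells (-0.88 ± 0.08, 1.84-fold lower), and S100a10, the partner of annexin A2, at 11.47, 11.41 and 11.41 after RA and 11.82, 11.95 and 11.93 while proliferating (-0.47 ± 0.08). The laminin genes Lama4 (-0.48 ± 0.05) and Lama5 (-0.42 ± 0.05) fell, and Anxa6 (-0.44) did so on 1 probe set only, with -0.18 over their mean. Sparc, a secreted matrix protein, rose (0.49 ± 0.05). Of 20 targets of p53 and genes of apoptosis, 10 of them tested, 1 fell and 1 rose. The caspase gene Casp8 was at 8.22, 8.2 and 8.11 in RA-treated KD cells, against 8.90, 8.80 and 8.81 in proliferating KD cells (-0.66 ± 0.08). Trp53inp1 rose (0.39), but not without the third proliferating (0.35) or the first RA-treated KD array (0.36). Of 19 FoxO targets, 12 of them tested, Txnip fell and Ccng2 rose. Ccng2, a cyclin of resting cells, was at 8.21, 8.19 and 8.22 in RA-treated KD cells, against 7.61, 7.76 and 7.64 in proliferating KD cells (0.53 ± 0.05). The lysosomal protease gene Ctsb rose (0.39 ± 0.04), except without the third proliferating KD array (0.35). It was the only call among 24 lysosome and autophagy genes, 14 of them tested. Of 55 cytosolic ribosomal protein genes, 25 of them tested, 2 fell and 0 rose. They were Rpl36 (-0.45 ± 0.06) and Rpl13 (-0.40), the last of them not without the second proliferating KD array (-0.36). None of 30 ribosome biogenesis genes was called (19 were tested), and their median was -0.14.

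The RA response of control cells was set beside that of KD cells to see where they differed. Control cells had 556 genes higher (5.58% of those tested) and 375 lower (3.76%) after RA, and the comparisons share no array. Of the genes called higher in KD cells 400 were called higher in control cells too, which is 74.8% of the KD list and 71.9% of the control list. For genes called lower it was 206, or 45.2% of the KD list and 54.9% of the control list. Genes are not independent replicates; across the 9969 tested, the log2 changes of KD and control cells correlated at r = 0.77. Of the 134 genes called higher in KD cells and not in control cells 114 had a control change of the same sign, and of 249 called lower only in KD cells 233 did. Replication and mitosis were alike: 41 of 43 and 45 of 47 genes were called higher in control cells. For several lists the counts were further apart, at 6 lower in KD and 2 lower in control cells for interferon-stimulated genes, 7 in KD and 2 in control cells for immediate early and ERK feedback genes, 8 in KD and 5 in control cells for sterol synthesis, and 4 in KD and 1 in control cells for the neuronal cytoskeleton. Other lists had fewer lower calls in KD cells, at 1 in KD and 4 in control cells for axon guidance, 3 in KD and 5 in control cells for each of the synapse and the catecholamine list, 2 in KD and 4 in control cells for ion channels, and 4 in KD and 6 in control cells for hypoxia-inducible genes. None of these differences in counts was tested. Gene by gene, the interaction (defined below) was called negative in 3 interferon-stimulated, 3 immediate early and ERK feedback and 2 neuronal cytoskeleton genes. It was called positive in 1 gene of the catecholamine list. In the sterol, axon guidance, synapse, ion channel and hypoxia-inducible lists 0 genes had a called interaction.

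**Figure D3:**
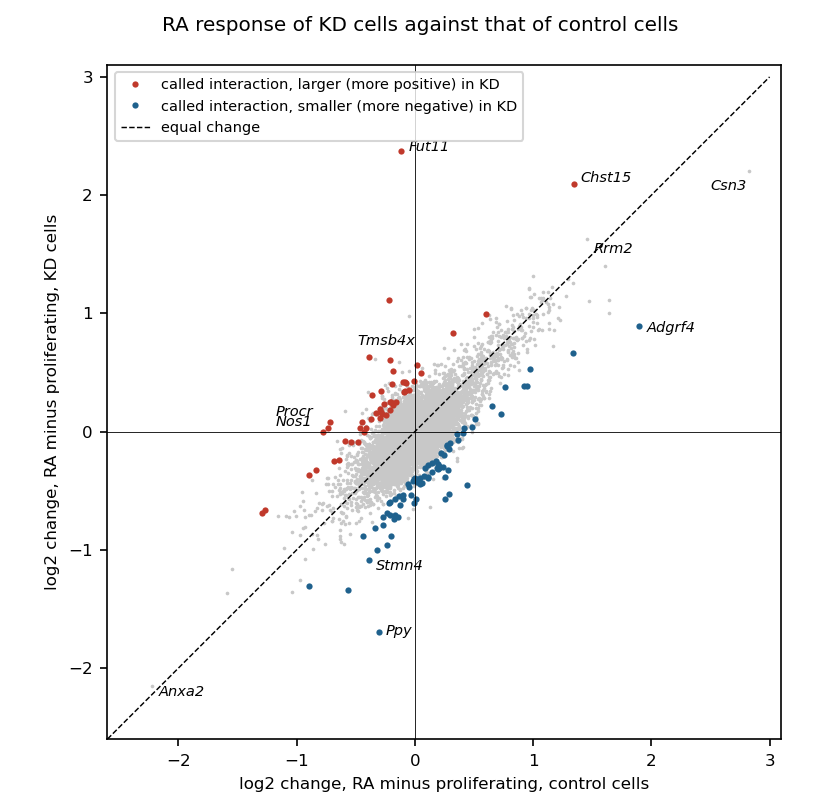
Log2 change after RA of each tested gene in KD cells (vertical axis) against that in control cells (horizontal axis), with a dashed line where both are equal. Coloured points are genes with a called interaction. In 49, such as Fut11, the change was more positive in KD cells, and in 75, such as Ppy and Adgrf4, more negative. Most genes lie along the dashed line (r = 0.77).

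The difference itself, the interaction (the RA change in KD cells less the one in control cells), was called in 124 genes. It was positive in 49 (0.492% of those tested) and negative in 75 (0.752%). Of the 249 genes called lower only in KD cells 36 had a called interaction, and of the 134 called higher only in KD cells 12 did. These counts were less settled than those of the RA response. With 1 of the 12 arrays left out they ran from 8 to 52 positive and from 27 to 91 negative, with the fewest positive without the third RA-treated control array and the fewest negative without the second proliferating KD array. A second quantile normalisation turned the balance, to 85 positive and 58 negative. With the replicate number as a block, which nothing in the labels ties to a shared culture, 0 genes were called in limma, although 1555 had an unadjusted p under 0.05. Of 27 genes described here with a called interaction, 15 kept it under every alternative that tested them except that block, and adjusted p-values under the block were 0.0608 to 0.134.

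Genes with a positive interaction responded less negatively or more positively in KD cells. Fut11 rose in KD cells (given above), and in control cells it was at 9.41, 8.92 and 8.31 after RA and 8.96, 9.04 and 8.99 while proliferating, with overlapping groups (interaction 2.49 ± 0.38, adjusted p = 0.0106, or 1.21 over the mean of its probe sets). Nos1, the neuronal nitric oxide synthase and a gene the study follows, was at 6.97, 6.97 and 6.80 in RA-treated KD cells, against 6.83, 6.92 and 7.0 in proliferating KD cells. In control cells it fell, with 7.26, 7.38 and 7.32 after RA and 8.12, 8.09 and 8.08 while proliferating (interaction 0.77 ± 0.09, adjusted p = 0.00239). KD arrays therefore overlapped, and control arrays did not. Procr, the protein C receptor, repeated this pattern, with 8.46, 8.39 and 8.38 after RA and 8.39, 8.41 and 8.33 while proliferating in KD cells and 8.14, 8.35 and 8.12 and 8.93, 9.04 and 8.83 in control cells (interaction 0.76 ± 0.10). Abcc3, an export pump of organic anions, fell in both, by -0.67 in KD and -1.26 in control cells (interaction 0.60 ± 0.06).

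The negative interactions were led by Ppy, at 7.93, 8.17 and 8.23 in KD cells after RA, 9.90, 9.85 and 9.66 in proliferating KD cells, 7.62, 7.89 and 7.91 in control cells after RA and 8.17, 8.0 and 8.17 in proliferating control cells (interaction -1.39 ± 0.14, adjusted p = 0.00166). Proliferating KD cells stood apart from the other 3 groups. Adgrf4, an adhesion G protein-coupled receptor, was at 9.05, 8.99 and 8.89 in RA-treated KD cells, against 8.04, 8.23 and 7.98 in proliferating KD cells, and rose further in control cells, to 9.20, 9.09 and 9.21 against 7.12, 7.27 and 7.42 (interaction -1.01 ± 0.12). Cfap221, a cilium gene, fell by -0.96 in KD cells and changed by -0.24 in control cells (interaction -0.72 ± 0.11). Jun changed by -0.89 in KD and -0.20 in control cells (interaction -0.68 ± 0.08, adjusted p = 0.00383), and Klf6 by -0.81 and -0.33 (-0.48 ± 0.08). Stmn4 changed by -1.09 and -0.39 (-0.70 ± 0.09), Mcam by -1.0 and -0.32 (-0.68 ± 0.07), and H2bc4 by -1.34 and -0.56 (-0.78 ± 0.11).

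A few regulators belong here as well. Meis1 rose less in KD cells (0.39) than in control cells (0.93; interaction -0.54 ± 0.09, adjusted p = 0.0163). Mycn fell in KD cells (-0.44) and was at 9.0, 9.03 and 9.14 in RA-treated against 9.01, 9.0 and 8.98 in proliferating control cells (interaction -0.50 ± 0.07). Lpin1 changed by -0.72 in KD and -0.27 in control cells (-0.45 ± 0.06). Some genes with marked RA changes showed no called difference: the interaction was -0.62 for Csn3 (adjusted p = 0.0955), -0.53 for Cyp26b1 (0.0864), -0.31 for Th (0.0511), -0.35 for Dhcr7 (0.121) and 0.07 for Anxa2 (0.847). A p that misses the threshold does not show that the responses were equal.

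**Figure D4:**
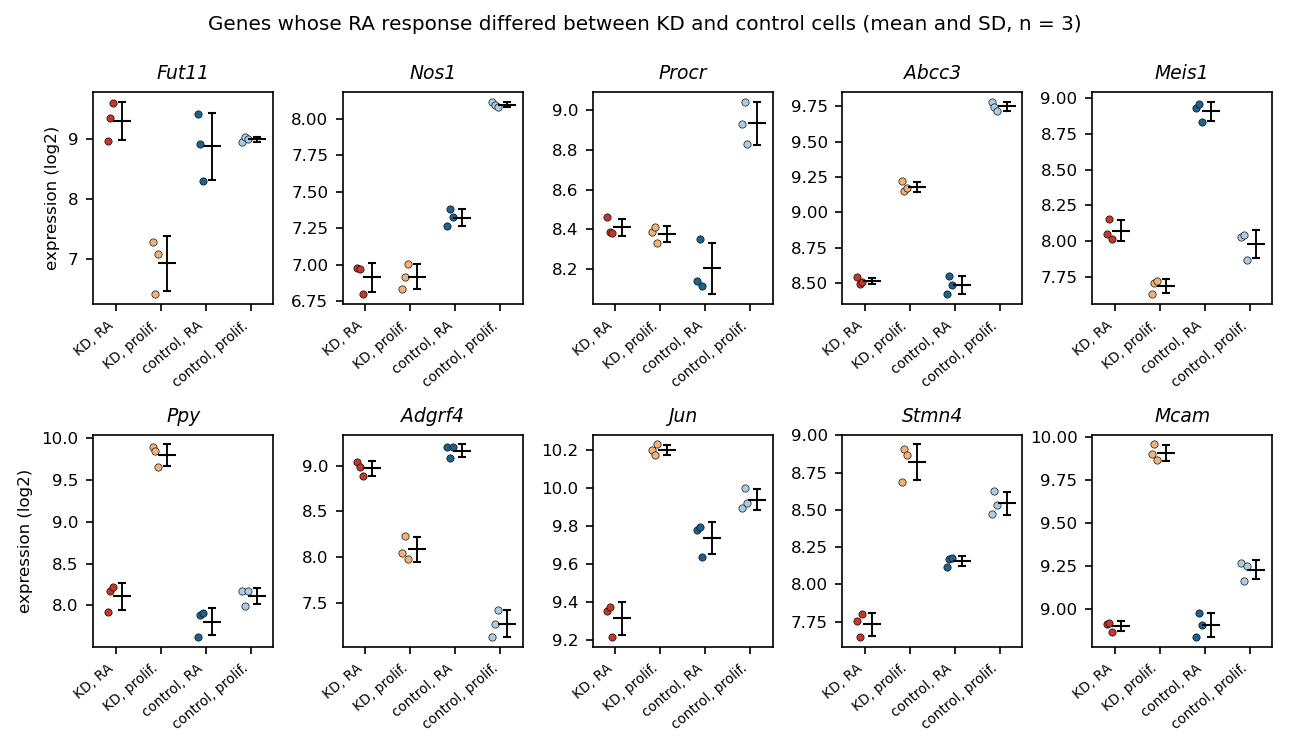
Log2 expression (vertical axes, scaled gene by gene) of 10 genes with a called interaction on each of the 12 arrays, in the order RA-treated KD, proliferating KD, RA-treated control and proliferating control cells, with the mean and SD of 3 arrays beside the points. For Nos1 and Procr the RA-treated and proliferating arrays overlap in KD cells and not in control cells, and Ppy, Jun, Stmn4 and Mcam differ more in KD cells.

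Only 2 genes were called in opposite directions. Tmsb4x, which encodes the actin-binding thymosin beta 4 and has near-identical copies in the genome, was at 6.30, 6.44 and 6.19 in RA-treated KD cells, against 5.99, 5.29 and 5.77 in proliferating KD cells, a rise of 0.63 against -0.39 in control cells (interaction 1.01 ± 0.19, adjusted p = 0.0276). That interaction lost its call, at adjusted p-values of 0.0509 to 0.0676, without any 1 of the 6 control arrays, the third proliferating KD array or the second RA-treated one. Olfr787, an olfactory receptor gene named here after its values were seen, changed by -0.45 in KD and 0.44 in control cells.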

How the data were processed

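The authors deposited log2 values for every probe set on each array, obtained with RMA (background correction, quantile normalisation across arrays, gene-level summary). RMA and limma are also in the submitters' processing notes, without versions. The arrays already share a scale (array medians of 7.15 to 7.21), so a difference in total RNA per cell would not show, and the number of arrays limits the precision. Scan dates: not given in the sources used here.

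Of 35556 probe sets, 21789 had 1 gene symbol in the platform annotation, 1621 had several and 12146 were unnamed here. Symbols were set against RefSeq (GRCm38.p6) by gene identifier: 21698 probe sets matched, 91 did not, and 0 symbols changed. For 999 of 19938 genes several probe sets existed. The lower 50% of genes by interquartile range were dropped, as the study's variance filter was read, which left 9969. The means of the 4 groups were fitted over 12 arrays with limma 3.58.1 in R 4.3.3 (lmFit, contrasts, eBayes, 2-sided). Calls needed at least 1.3-fold and a Benjamini-Hochberg p under 0.05. Changes are RA-treated minus proliferating, the interaction is the KD change minus the control change, and errors are standard errors. On simulated arrays, for the RA response of KD cells with 9969 genes tested, 92 of 100 planted changes of 0.5 (log2) and 100 of 100 of 1 were recovered. False calls numbered 4. Only the planted genes changed there and noise was independent between arrays, so recovery in the data may differ.

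The members and gene lists were chosen with earlier results of these data known. Named were the 12 largest called rises and 12 largest falls with arrays that did not overlap, the 8 largest called interactions in each direction, all measured RA genes, up to 6 called genes per direction in each other list, and 10 genes the study speaks of. The ranked genes left out predicted genes, small RNAs and receptors of the olfactory and vomeronasal families. Other genes with values are list members and were named after their values were seen. Alternatives changed the filter, the probe set per gene, the scaling, the arrays in the fit, the array weights, the variance model and a replicate block, and left out each array in turn.

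Replicate numbers were checked as pairs. The deviations of same-numbered RA-treated and proliferating arrays from their group means correlated at -0.07, 0.0 and 0.01 in KD cells. In control cells the values were 0.01, -0.04 and 0.11, against -0.14 to 0.14 for differently numbered control arrays. Such correlations cannot show whether same-numbered samples were paired by design.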

Additional observations from a re-analysis of the deposited data

Results flagged for a closer look

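The RA response differed between KD and control cells, by limma's test of the interaction, in 27 of the named genes. Values are the RA change in KD cells less the one in control cells, on the log2 scale. In the following 15 genes the call held under every alternative that tested them except the replicate block. It was positive for Fut11 (2.49, or 1.21 over the mean of its probe sets), Nos1 (0.77), Procr (0.76) and Abcc3 (0.60), and negative for Ppy (-1.39), Adgrf4 (-1.01), H2bc4 (-0.78), Cfap221 (-0.72), Stmn4 (-0.70), Jun (-0.68), Mcam (-0.68), Meis1 (-0.54), Mycn (-0.50), Klf6 (-0.48) and Lpin1 (-0.45).

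The other 12 lost the call when 1 array was left out, in some cases whichever of several arrays it was. Phxr4 (0.79) lost it only without the third RA-treated control array (0.76, adjusted p = 0.0509 in limma). Of the other genes with a positive value, Tmsb4x (1.01) lost it without any 1 of 8 arrays (adjusted p = 0.0509 to 0.0676), Chst15 (0.75) of 9 (0.0557 to 0.0795), Milr1 (0.60) of 5 (0.0509 to 0.0557) and Pdia4 (0.44) of 10 (0.0571 to 0.0971).

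Among those with a negative value the call was lost without any 1 of 8 arrays for Lix1 (-0.82; adjusted p = 0.0532 to 0.0648) and H2bc8 (-0.64; 0.0549 to 0.0690), of 5 for Jund (-0.51; 0.0509 to 0.0615), of 7 for Ifit1 (-0.59; 0.0534 to 0.0718), of 9 for Tubb2b (-0.42; 0.0519 to 0.0971), of 10 for H1f2 (-0.41; 0.0619 to 0.109) and of 11 for Mphosph6 (-0.82; 0.0550 to 0.0852). Over the mean of their probe sets Mphosph6 stood at -0.43 and Pdia4 at 0.25, and on the brightest probe set at -0.05 (adjusted p = 0.891 in limma) and 0.06 (0.729).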

How the results depend on the processing

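For the RA response of KD cells, the counts of genes higher and lower (535 and 456) stayed within 1.5 times under every alternative run, and ran from 514 to 563 higher and from 410 to 509 lower with 1 array left out. Genes called the same way in KD and control cells (606) ran from 583 to 616. Of the 131 named genes called in KD cells 110 kept their call under every alternative that tested them.

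The interaction counts (49 positive, 75 negative) moved more. Positive calls were 31 without the variance filter, 85 after a second quantile normalisation and 80 with a mean-variance trend. Negative calls were 58 after the second quantile normalisation and 47 with arrays centred on their medians. With 1 array left out, positive calls ran from 8 to 52 and negative calls from 27 to 91. The cause was not tested, apart from the loss of arrays itself. The share of positive calls was 59.4% after the second quantile normalisation, against 39.5%.

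With the replicate number as a block, nested in the kind of cell, the RA response of KD cells had 533 genes higher and 455 lower, 985 of the 991 genes kept their call, and 0 interactions were called in either direction, with 4 residual degrees of freedom against 8. The labels give no pairing and the correlations of same-numbered arrays cannot settle it, so the block was only an alternative. Changes near 1.3-fold could pass or miss the limit with 1 array more or less, and genes dropped by the filter were not tested.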

Other observations

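Further gene families were looked at after the values were seen, and some of their members are also counted in the lists above. Of 20 measured centromere protein genes, among them Cenpa, Cenpe, Cenpf and Cenpk of the mitosis list, 14 rose and 0 fell (median 0.53), from Cenpj (0.45) to Cenph (1.23), and 15 rose in control cells. Cenpa, the histone variant that marks centromeres, rose by 0.53. Of 19 genes of the Fanconi anaemia pathway and homologous recombination, which repair crosslinks and double-strand breaks, 13 rose and 0 fell (median 0.76), and 13 rose in control cells. Exo1, a nuclease that resects DNA ends (1.14), Rad54l (1.13), Fancd2 (1.13) and Brca1 (1.10) had the largest changes.

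Among all tested genes 5.37% were higher and 4.57% lower in KD cells. Of 34 bitter taste receptor genes, 19 of them tested, 3 fell: Tas2r135 (-1.25), Tas2r143 (-0.91) and Tas2r126 (-0.61). Among 17 Kruppel-like factor genes, 7 of them tested, Klf6 (-0.81) and Klf10 (-0.68) fell and Klf3 (0.58) rose. Of 53 small nucleolar RNA genes, 45 of them tested, 8 were higher and 1 was lower in KD cells by the same rule (median 0.15), against 1 higher and 3 lower in control cells, and the difference was not tested. Of 297 microRNA genes, 156 of them tested, 13 were called higher and 1 lower (median 0.04). The probes of these short genes may also read their host transcripts or precursors.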
